A study of Mus musculus with 6 samples.

Results

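The lysosomal genes described here are 46 genes for the transcription factors TFEB and TFE3, lysosomal membrane proteins and lipid transporters, lysosomal hydrolases with their partners, subunits of the vacuolar proton pump (V-ATPase) and the LAMTOR scaffold. They were taken from a written list of symbols, and all 46 were found by gene identifier among the 55401 genes of the deposited table. The list holds 2 transcription factors, 7 membrane and lipid transport genes, 18 hydrolases and partners, 14 V-ATPase genes and 5 LAMTOR genes.

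RNA-seq was performed on cultures labelled as female germline stem cells (FGSCs) of C57BL/6 mice at a passage above 20, which the study's methods describe as a single line grown on mitotically inactivated STO feeder cells. The control group was untreated and had 3 libraries. The metformin group had 3 libraries from cultures that received 1 μM metformin, a biguanide used against diabetes, for 24 h. Nothing in the labels says whether the libraries of a group came from separate cultures, so that p-values measure the spread between these libraries, which may be technical.

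Lysosomes are the acidic organelles in which cells break down proteins, sugars and lipids. The V-ATPase pumps protons into them with a V1 part that splits ATP in the cytoplasm and a V0 part that carries protons through the membrane, and the hydrolases inside need the acid to work. LAMTOR anchors the Rag GTPases and mTORC1 to the lysosomal surface when nutrients are present. TFEB and TFE3 are kept in the cytoplasm by active mTORC1 and otherwise enter the nucleus, where they bind E-boxes in the promoters of lysosomal genes. Metformin has been linked to the lysosome through this surface complex, and the comparison of the groups asked whether RNA of these genes differed after the treatment.

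The authors deposited levels as FPKM, a measure scaled for gene length and sequencing depth. Levels of different genes can be set side by side with less certainty where their sequence also lies elsewhere in the genome. Gapdh, with 85.6% of the 50-base words of its transcript found elsewhere, was listed at 10.1 FPKM. Actb, with 15.4%, was listed at 979 FPKM. The part of repeats in such levels was not tested. Depth was not stated and was estimated at 13400000 to 14000000 fragments per library from the steps in the values of short genes with 1 exon. Defining markers of the labelled cell type were at or near 0, with 6 of 10 germ cell and pluripotency genes (Dazl, Pou5f1, Dppa3, Nanos2, Nanos3 and Zp3) listed at 0 in every library and a summed level of 0.48 to 1.44 FPKM in control and 0.33 to 0.93 FPKM in metformin libraries. Of the blood cell genes, all 10 averaged 10 FPKM or more. They summed to 574 to 576 FPKM in control and to 578 to 601 FPKM in metformin libraries without overlap, with 3 of the 10 higher and 0 lower at an unadjusted p under 0.05 and 0 called in limma. Without overlap, 4 of them were higher and 2, Ptprc and Lcp1, were lower. Of all tested genes, 6.03% were higher and 4.81% lower at that p, and 8.89% were higher and 8.10% lower without overlap. Of 20 genes used by every cell, 5 were higher and 2 lower at that p, and 8 were higher and 3 lower without overlap, with 0 called in limma. Of 12 mast cell genes, 5 averaged 10 FPKM or more, whereas Fcer1a, Tpsb2, Tpsab1 and Mcpt4 were listed at 0 throughout. The 12 genes summed to 827 to 866 FPKM in control and to 818 to 835 FPKM in metformin libraries. Of the 5 tested, 1 was higher (Gata2) and 1 lower (Cpa3) at an unadjusted p under 0.05, with 0 called in limma. Of 8 macrophage genes, Adgre1 had a mean of 58.3 FPKM and Cd68 of 6.16 FPKM. The others averaged below 1 FPKM over the 6 libraries and were not tested, with Marco listed at 0 throughout. Among these, Lyz2 averaged 1.03 FPKM in control and 0.49 FPKM in metformin libraries. Its groups did not overlap, with 0.65 FPKM in the highest metformin and 0.85 FPKM in the lowest control library. The 8 genes summed to 64.2 to 67.8 FPKM in control and to 62.1 to 67.5 FPKM in metformin libraries. Only Adgre1 and Cd68 were tested, with 0 called and 0 at an unadjusted p under 0.05 in limma. All 8 fibroblast and feeder cell genes together gave at most 0.78 FPKM. The part of other cell types in the lysosomal levels was not tested, and in such bulk libraries fewer cells of a type and less RNA per cell cannot be told apart.

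E-boxes before the starts of these genes are shown first, since they are the letters that TFEB and TFE3 are known to bind. RefSeq promoters of GRCm38.p6 were matched by symbol for 38 of the 46 genes, and the 250 bases before each start were searched on both strands. The core CACGTG, which is its own reverse complement, was found for 13 of 38 members (34.2%) and for 1854 of all 27025 genes in the promoter table (6.86%). Its extension TCACGTG, also read as CACGTGA and contained in the count of the core, was found for 12 members (31.6%) and for 3.58% of all genes. The related TCATGTG, also read as CACATGA, was found for 6 members (15.8%) and for 3.72% of all genes. The shares over all genes were not limited to genes expressed in these libraries, and the differences from the members were not tested. No promoter of Tfeb or Tfe3 in the table held any of these letters in this window.

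The windows with the most copies of the core next to a T before it or an A after it are those of Lamp1 with 4 copies and of Atp6v0b, Ctsd, Gla, Lamtor4 and Mcoln1 with 2 copies each. Capitals mark the core with this T or A, and each line is read 5′ to 3′ on the strand of the gene. For Ctsd and Mcoln1 only the copy nearest to the start is shown, because the deposited table places the start of these genes further upstream than RefSeq.
Lamp1, chr8:13159080-13159160, plus strand: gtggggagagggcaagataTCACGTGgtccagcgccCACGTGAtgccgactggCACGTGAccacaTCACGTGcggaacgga
Atp6v0b, chr4:117887330-117887385, minus strand: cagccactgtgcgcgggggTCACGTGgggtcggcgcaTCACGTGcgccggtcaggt
Gla, chrX:134601174-134601252, minus strand: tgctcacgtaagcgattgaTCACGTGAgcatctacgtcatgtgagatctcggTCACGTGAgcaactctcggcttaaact
Lamtor4, chr5:138255342-138255403, plus strand: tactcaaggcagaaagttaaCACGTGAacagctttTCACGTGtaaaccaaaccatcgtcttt
Ctsd, chr7:142387910-142387935, minus strand: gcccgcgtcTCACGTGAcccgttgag
Mcoln1, chr8:3500464-3500489, plus strand: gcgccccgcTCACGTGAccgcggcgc
The first bases of the Lamp1 copies lie between 61 and 15 bases before its start, whereas those of Gla lie between 227 and 194 bases before it, with 1 copy of TCATGTG in small letters between them. Across groups, the core was found for 7 of 16 hydrolases and partners, 2 of 6 membrane and lipid transport genes, 2 of 4 LAMTOR genes and 2 of 10 V-ATPase genes in the promoter table. A match describes letters only and is not a site of binding.

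Levels of the 46 genes spanned a wide range, and the same genes were high in all 6 libraries. Ctsz, a cysteine cathepsin that trims the ends of proteins, had the highest mean at 287 FPKM and lay above 98.7% of the 10661 genes that averaged 1 FPKM or more. In total, 30 of the 46 members averaged 10 FPKM or more, and the median of the 41 members that averaged 1 FPKM or more was 23.2 FPKM against 9.35 FPKM for all such genes. The other 5 members, Ctsa, Ctsh, Ctss, Hexa and Tpp1, were below 1 FPKM and were not tested.

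**Figure D1:**
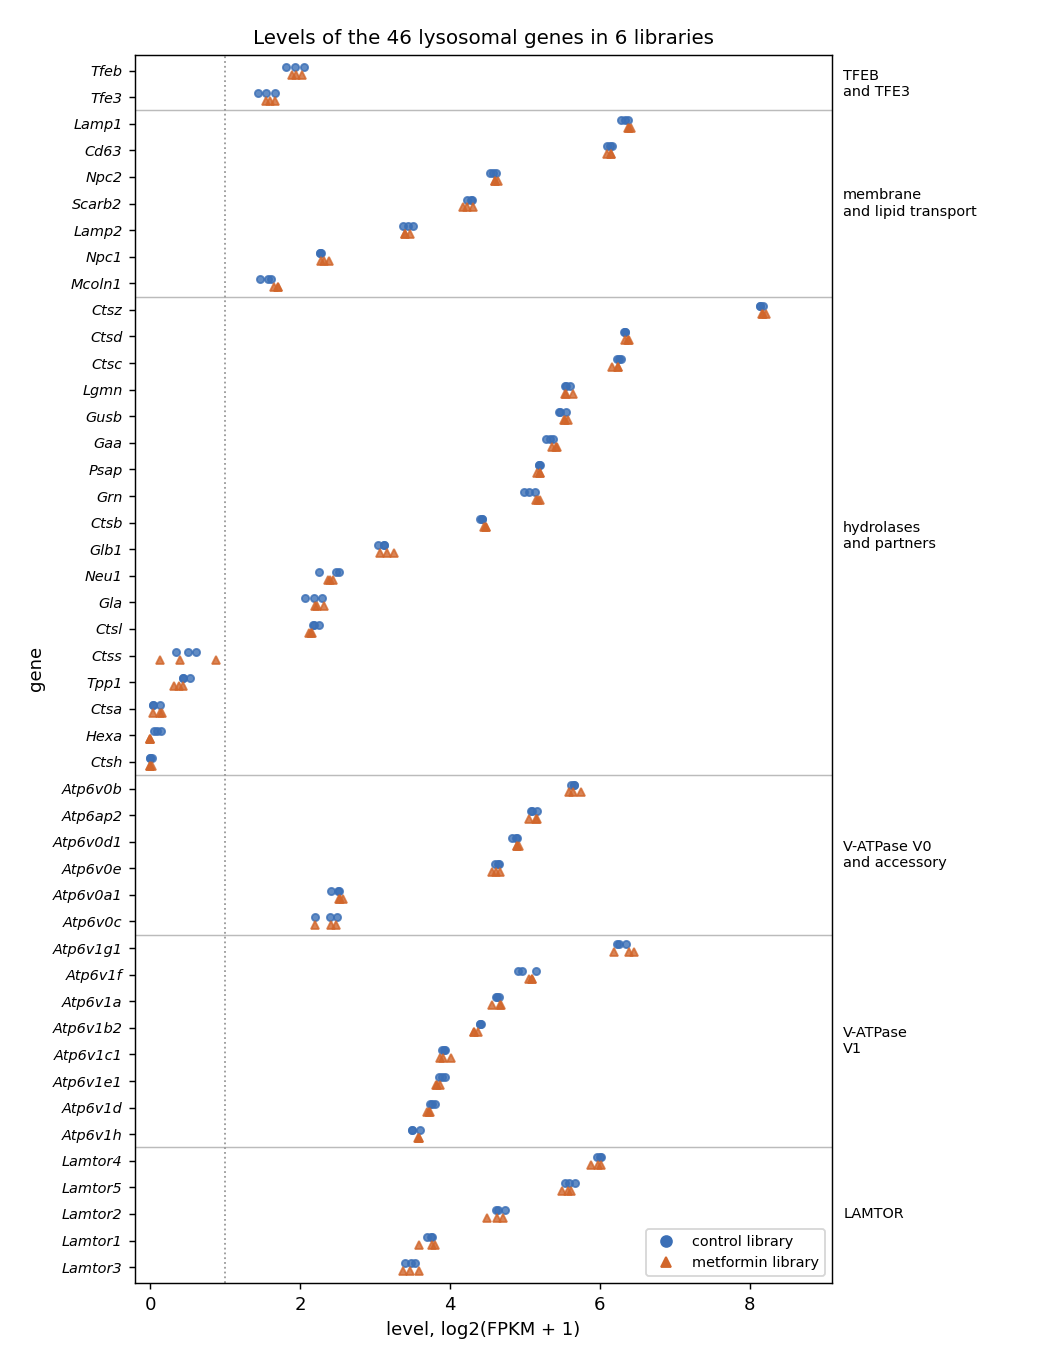
Levels of the 46 genes as log2(FPKM + 1), with 1 point for each control library (circles) and metformin library (triangles). Genes are grouped by role and ordered by mean level, and the dotted line marks 1 FPKM, below which 5 hydrolases lie.

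Between metformin and control libraries, none of the 41 tested members passed the threshold of an adjusted p under 0.05 (limma on log2(FPKM + 1) with Benjamini-Hochberg adjustment across the 10661 tested genes). The adjusted p of these members lay between 0.390 and 0.999. Over all tested genes, 3 (0.0281%) were higher and 0 (0%) lower at this threshold, namely Trib3, Chac1 and Ddit3, none of which belongs to the lysosome. At an unadjusted p under 0.05 there was 1 member higher, Grn, and 0 lower, beside 6.03% of all tested genes higher and 4.81% lower. Among the tested members, all 3 metformin libraries lay above all 3 control libraries for 4 (9.76%), Grn, Mcoln1, Ctsb and Ctsd, beside 8.89% of all tested genes. They lay below for 2 tested members (4.88%), Ctsl and Atp6v1b2, beside 8.10% of all tested genes. Of the 5 members that were not tested, Hexa and Tpp1 also lay below without overlap. The share without overlap was not determined for all genes below 1 FPKM, so this count has no background.

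The log2 fold changes of the 41 tested members were small, from -0.07 for Ctsl to 0.14 for Mcoln1, with a median of 0.02 against 0.0041 for all tested genes. Values were higher with metformin for 25 members (61.0%) and lower for 16, beside 52.3% of all tested genes higher. The split of the members was 22 to 19 after quantile normalization. The 95% intervals of the 41 differences reached down to -0.23 for Atp6v0c and up to 0.31 for Mcoln1, so that larger differences on this scale lay outside every interval. On this scale, with 1 added to each FPKM, changes of weakly expressed genes come out too small. Leaving out 1 library at a time gave 0 called members in every case. The spread between libraries of a group, with a median coefficient of variation of 3.69%, was close to that of counting fragments at this depth, with a median of 3.76%.

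**Figure D2:**
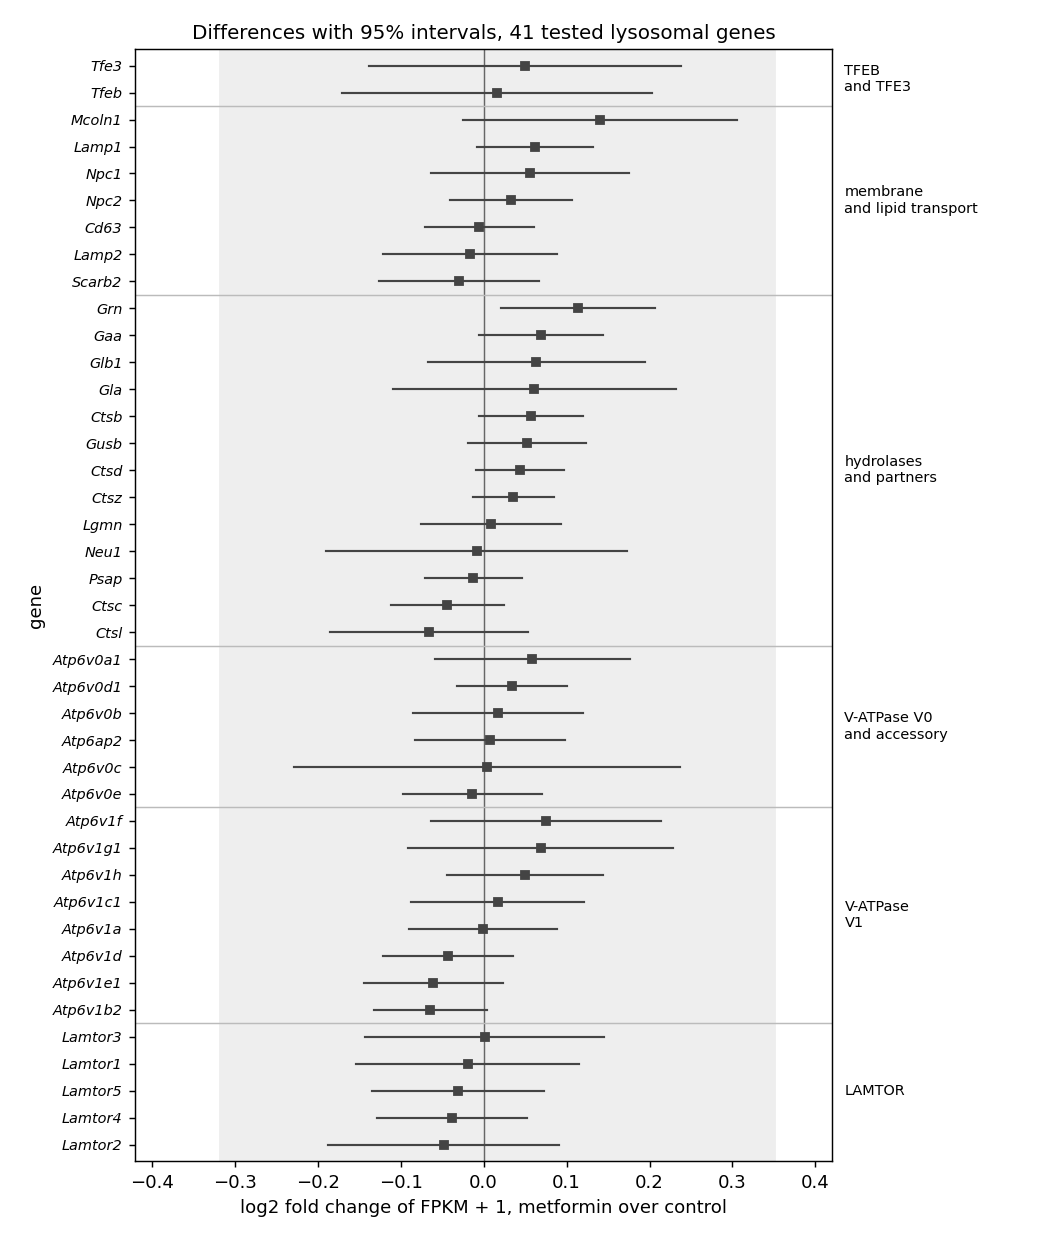
Log2 fold changes of the 41 tested genes (squares, metformin over control, on FPKM + 1) with 95% intervals from limma (lines), grouped by role. The grey band spans the 1st to 99th percentiles of all tested genes, from -0.32 to 0.35, and only the interval of Grn lies wholly on one side of 0.

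Tfeb and Tfe3 encode the transcription factors that drive lysosomal genes, and both were present at a low level. Tfeb (ENSMUSG00000023990, chr17:47737030-47792419, plus strand) had 2.51, 3.16 and 2.83 FPKM in control and 2.84, 3.07 and 2.70 FPKM in metformin libraries. The groups overlapped, and control replicates 1 and 2 held both the lowest and the highest value of all 6. Its log2 fold change was 0.02 (95% interval from -0.17 to 0.20, adjusted p = 0.965 in limma). Tfe3 (ENSMUSG00000000134, chrX:7762560-7775202, plus strand) had 2.16, 1.93 and 1.72 FPKM in control and 1.93, 2.16 and 2.02 FPKM in metformin libraries. These values overlapped as well, with a log2 fold change of 0.05 (95% interval from -0.14 to 0.24, adjusted p = 0.860 in limma). The sign of the Tfeb difference turned without control replicate 1 (-0.05) or metformin replicate 2 (-0.02), and that of Tfe3 turned without control replicate 3.

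The other genes of this small family were read from the list of related genes. Mitf, which encodes the factor of pigment cells and mast cells, had 12.1, 11.6 and 11.6 FPKM in control and 11.5, 11.4 and 11.6 FPKM in metformin libraries. It made up 70.6% of the summed FPKM of the family, compared with 17.3% for Tfeb and 12.1% for Tfe3, and this order held in every library. Its log2 fold change was -0.03 (adjusted p = 0.806 in limma). Tfec was listed at 0 in all 6 libraries.

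Membrane and lipid transport genes code for the glycoproteins that line the lysosome and for proteins that move ions and cholesterol across its membrane. Lamp1 (chr8:13159161-13175338), the gene with 4 E-box copies and one of the main glycoproteins of the membrane, had 79.7, 76.9 and 82.3 FPKM in control and 84.7, 81.8 and 83.0 FPKM in metformin libraries. The highest control library lay above the lowest metformin library, and its log2 fold change was 0.06 (95% interval from -0.01 to 0.13, adjusted p = 0.497 in limma). Its sister gene Lamp2 was at 9.82 FPKM on average, well below Lamp1. Lamp1 was above Lamp2 in every library.

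Mcoln1 (chr8:3500457-3515232) encodes TRPML1, the channel that releases calcium from lysosomes, and had the lowest level of the membrane genes. It was at 1.97, 2.07 and 1.75 FPKM in control and at 2.26, 2.15 and 2.27 FPKM in metformin libraries. The groups did not overlap, and its log2 fold change of 0.14 was the largest of all tested members (95% interval from -0.02 to 0.31, adjusted p = 0.523 in limma). About 101 fragments per library stood behind these values, with a counting error of 9.94%. Its adjusted p ranged from 0.480 to 0.748 over the alternatives in limma.

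Scarb2 encodes LIMP-2, which brings glucocerebrosidase to the lysosome, and had the lowest fold change of the membrane genes. Its levels were 18.6, 18.5 and 17.7 FPKM in control and 17.1, 18.8 and 17.8 FPKM in metformin libraries, with both extremes in the metformin group. The log2 fold change was -0.03 (adjusted p = 0.830 in limma). Cd63, a tetraspanin of late endosomes, was the second most abundant of these genes at 69.2 FPKM. The cholesterol carrier Npc2 had 23.2 FPKM and the transporter Npc1, which receives cholesterol from it, had 3.93 FPKM. Over the 7 membrane and lipid transport genes, 4 values were higher and 3 lower with metformin, and the median log2 fold change was 0.03.

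Hydrolases and their partners contained the most and the least abundant members. Ctsz (chr2:174427493-174439039) had 280.2, 282 and 288 FPKM in control and 290.1, 286 and 296 FPKM in metformin libraries. The groups overlapped, with a log2 fold change of 0.04 (adjusted p = 0.570 in limma). Ctsd, the main aspartic protease of the lysosome, followed at 80.6 FPKM and Ctsc, which activates granule proteases, at 74.4 FPKM. The legumain gene Lgmn, the glycosidase genes Gusb and Gaa, and Psap, the precursor of the saposins that help to digest sphingolipids, had means between 35.5 and 46.5 FPKM.

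Grn (ENSMUSG00000034708, chr11:102430315-102437048, plus strand) encodes progranulin, a secreted protein that is cut into granulins in the lysosome. It had 32.3, 30.8 and 34.0 FPKM in control and 34.4, 35.0 and 36.0 FPKM in metformin libraries. The groups did not overlap, and 0.36 FPKM lay between the nearest pair of libraries. Its log2 fold change was 0.11 (95% interval from 0.02 to 0.21) with an unadjusted p of 0.0225 in limma, and an adjusted p of 0.390. The adjusted p of Grn ranged from 0.266 to 0.614 over the alternatives in limma. Its unadjusted p rose above 0.05 when control replicate 1 (0.0537), control replicate 2 (0.0692) or metformin replicate 3 (0.0733) was left out. With 3 libraries in each group, the smallest p that a two-sided exact permutation test allows is 0.1.

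Ctsb and Ctsd were the other hydrolases without overlap in the higher direction. The cysteine protease gene Ctsb had 20.5, 20.1 and 20.5 FPKM in control and 21.3, 20.9 and 21.4 FPKM in metformin libraries, a log2 fold change of 0.06 (adjusted p = 0.492 in limma). Ctsd had 79.5, 78.9 and 79.6 FPKM in control and 83.0, 80.0 and 82.5 FPKM in metformin libraries, a log2 fold change of 0.04 (adjusted p = 0.526 in limma). The nearest libraries of the groups were 0.45 FPKM apart for Ctsb and 0.38 FPKM apart for Ctsd. Ctsl, another cysteine cathepsin, was the lowest of the tested hydrolases and had the lowest fold change of all tested members. It had 3.51, 3.76 and 3.56 FPKM in control and 3.33, 3.43 and 3.45 FPKM in metformin libraries, with no overlap and a log2 fold change of -0.07 (95% interval from -0.18 to 0.05, adjusted p = 0.677 in limma). Of the 13 tested hydrolases and partners, 9 values were higher and 4 lower with metformin, and the median log2 fold change was 0.04.

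The 5 genes below 1 FPKM were all hydrolases. Hexa encodes a subunit of an enzyme that breaks down gangliosides, and was listed at 0.04, 0.07 and 0.11 FPKM in control and at 0 in all 3 metformin libraries. The groups did not overlap, but each value was below 0.116 FPKM, the level of 3 fragments on this gene. In the fit without a filter Hexa had an unadjusted p of 0.0122 and an adjusted p of 0.522 in limma, so that it was not called. Ctsh was listed at 0.02 FPKM in control replicate 3 and metformin replicate 2 and at 0 in the others. The carboxypeptidase gene Ctsa, whose product protects neuraminidase and beta-galactosidase, had 0.03, 0.09 and 0.03 FPKM in control and 0.03, 0.12 and 0.09 FPKM in metformin libraries, near its level of 3 fragments of 0.046 FPKM. Its partners Neu1 and Glb1 were at 4.34 and 7.73 FPKM. Ctss, a cathepsin of antigen-presenting cells, had 0.27, 0.53 and 0.42 FPKM in control and 0.10, 0.84 and 0.32 FPKM in metformin libraries. Tpp1, a tripeptidyl peptidase, had 0.36, 0.36 and 0.44 FPKM in control and 0.30, 0.25 and 0.35 FPKM in metformin libraries. Its groups did not overlap, with 0.35 FPKM in the highest metformin and 0.36 FPKM in the lowest control libraries, and all values were above its level of 3 fragments of 0.061 FPKM. In the fit without a filter it was not among the members with an unadjusted p under 0.05 in limma. The transcripts of these 5 genes were nearly all unlike other places in the genome, with at most 0.91% of their 50-base words found elsewhere.

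V-ATPase genes of the membrane part V0, with the accessory subunit, were compared next. Atp6v0b, the c″ subunit of the proton ring and a gene with 2 E-box copies, had the highest level of them. It had 49.5, 49.5 and 48.0 FPKM in control and 52.9, 47.0 and 49.0 FPKM in metformin libraries, with both extremes in the metformin group and a log2 fold change of 0.02 (adjusted p = 0.917 in limma). Atp6v0c (chr17:24163866-24169702), the c subunit that forms most of the ring, had the lowest level. It had 4.61, 3.58 and 4.27 FPKM in control and 4.34, 3.60 and 4.56 FPKM in metformin libraries, a log2 fold change of 0.0041 with the widest interval of all members, from -0.23 to 0.24 (adjusted p = 0.995 in limma). Of the 50-base words of its transcript, 84.7% also lie elsewhere in the mouse genome, and how the authors placed such fragments is not stated in the sources used here. The part of such repeats in its level was not tested.

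Atp6v0a1 encodes the large a subunit that carries protons past the ring. It had 4.67, 4.75 and 4.32 FPKM in control and 4.94, 4.78 and 4.71 FPKM in metformin libraries, which overlapped, with a log2 fold change of 0.06 (adjusted p = 0.703 in limma). Atp6v0e, a small membrane subunit, had 23.2, 24.0 and 24.2 FPKM in control and 23.6, 22.7 and 24.4 FPKM in metformin libraries, with a log2 fold change of -0.01 (adjusted p = 0.920 in limma). Atp6v0d1, which joins V0 to V1, and Atp6ap2, the renin receptor that helps to assemble the pump, were at 28.6 and 33.7 FPKM. Of the 6 genes, 5 values were higher and 1 lower with metformin, or 3 and 3 after quantile normalization. The median log2 fold change was 0.01.

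The 8 genes of the ATP-splitting part V1 had means from 10.8 FPKM for Atp6v1h to 78.7 FPKM for Atp6v1g1. Atp6v1g1, a subunit of the stalks between the parts, had 75.4, 80.7 and 73.9 FPKM in control and 86.8, 72.2 and 82.9 FPKM in metformin libraries. Its log2 fold change was 0.07 (adjusted p = 0.746 in limma), with the highest and the lowest value both in the metformin group. The fold change was 0.01 without metformin replicate 1 and 0.15 without metformin replicate 2. Of its 50-base words, 57.6% lie elsewhere in the genome. Atp6v1h, a regulator that couples V1 to V0, had 10.3, 10.3 and 11.2 FPKM in control and 11.1, 10.9 and 11.01 FPKM in metformin libraries, a log2 fold change of 0.05 (adjusted p = 0.693 in limma).

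Atp6v1b2 (chr8:69088646-69113711) encodes the B subunit, which with the A subunit forms the ATP-binding head. It had 20.4, 20.2 and 20.1 FPKM in control and 19.1, 19.1 and 19.8 FPKM in metformin libraries. The groups did not overlap, and its log2 fold change was -0.06 (95% interval from -0.13 to 0.0035, adjusted p = 0.477 in limma). Its partner Atp6v1a was at 23.9 FPKM in both groups, with a log2 fold change of -0.00048 (95% interval from -0.09 to 0.09, adjusted p = 0.999 in limma). Atp6v1f, a subunit of the central shaft region, had the largest value among V1 genes at 0.08 (adjusted p = 0.683 in limma), from 29.1, 34.4 and 30.1 FPKM in control to 33.2, 33.1 and 32.2 FPKM in metformin libraries. The groups overlapped through control replicate 2, without which the fold change was 0.15 with an unadjusted p of 0.0038 and an adjusted p of 0.460 in limma. It was 0.03 without control replicate 1. The remaining Atp6v1c1, Atp6v1d and Atp6v1e1, which hold the stalks and shaft, had means of 14.2, 12.4 and 13.6 FPKM. Of the 8 genes, 4 values were higher and 4 lower, and the median log2 fold change was 0.0082.

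Several V-ATPase subunits are encoded by more than 1 gene, and the list held 1 gene of each such set. On average over the 6 libraries its share was above 99% of the summed FPKM for the d, e, B, C, E and G subunits, and the lowest share in a library was 98.8% for Atp6v0e. The other genes of these sets, which serve mainly kidney, bone, testis and nerve cells, were at most at 0.63 FPKM in any library. The a subunit differed, in that Atp6v0a2 held 74.0% of the summed FPKM and the listed Atp6v0a1 held 24.5%. The a3 gene Tcirg1, known from osteoclasts, held 1.54%. Atp6v0a2, named here after its values were seen, had 15.04, 14.7 and 14.9 FPKM in control and 13.6, 13.6 and 13.3 FPKM in metformin libraries. The groups did not overlap, with a log2 fold change of -0.13 (95% interval from -0.20 to -0.06, adjusted p = 0.320 in limma). Atp6ap1, the other accessory subunit, had 31.2, 33.0 and 35.0 FPKM in control and 34.3, 35.8 and 34.0 FPKM in metformin libraries, with a log2 fold change of 0.07 (adjusted p = 0.620 in limma).

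**Figure D3:**
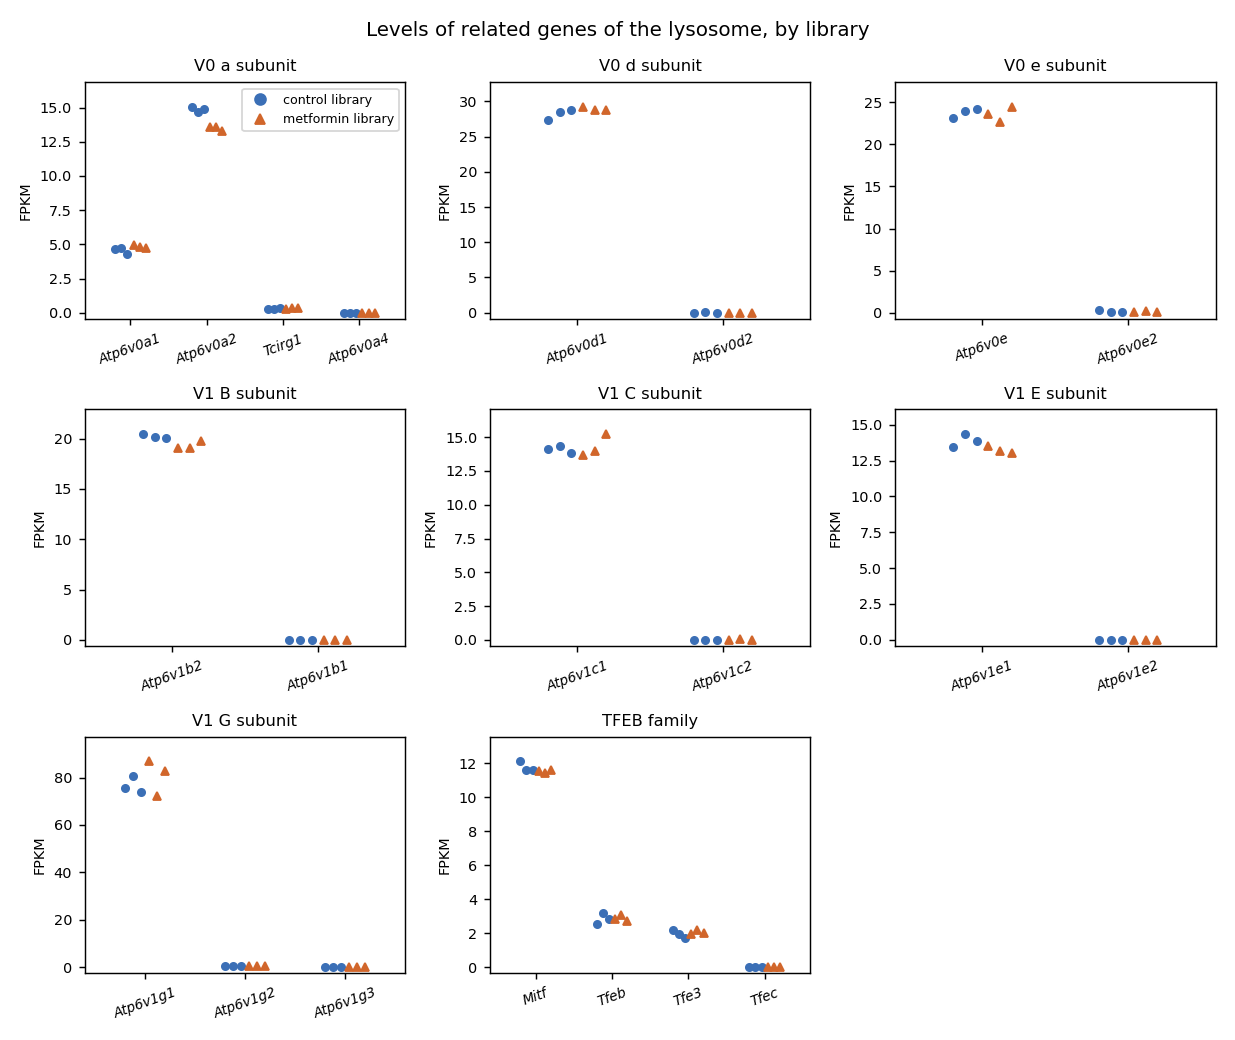
FPKM in each control library (circles) and metformin library (triangles) for sets of related genes, with 1 panel for each V-ATPase subunit that has several genes and 1 for the TFEB family. In 6 of the 8 panels a single gene carries nearly all of the level, while Atp6v0a2 and Mitf lead the a subunit and the TFEB family over the listed genes.

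V-ATPase genes were set against hydrolases in each library, as the list was drawn up for this comparison. The 14 V-ATPase genes summed to 341, 354.5 and 344 FPKM in control and to 359, 340.2 and 357 FPKM in metformin libraries, which overlapped. The 18 hydrolases and partners summed to 670.4, 673 and 686 FPKM in control and to 688, 686 and 699 FPKM in metformin libraries. The lowest metformin sum was above the highest control sum by less than 1 FPKM. This separation did not hold without Ctsz, which gave 41.6% to 42.3% of the sum, since the sums of the others were 390.2 to 398 FPKM in control and 398 to 404 FPKM in metformin libraries, with metformin replicate 1 below control replicate 3. Nor did it hold as a share of all FPKM of a library, with 0.210% to 0.215% in control and 0.214% to 0.219% in metformin libraries.

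The ratio of the hydrolase sum to the V-ATPase sum was 1.97, 1.90 and 2.00 in control and 1.91, 2.02 and 1.96 in metformin libraries. The lowest and the highest ratio lay in different groups and the remaining ones were mixed. By medians of log2(FPKM + 1) over the tested genes, the V-ATPase lay below the hydrolases by 0.70, 0.68 and 0.66 in control and by 0.75, 0.75 and 0.69 in metformin libraries. These ranges overlapped too. The median log2 fold change of the 14 V-ATPase genes was 0.01 and that of the 13 tested hydrolases 0.04, a difference of -0.03, and no test was made of this difference. It was closer to 0 without control replicate 1 (-0.01), metformin replicate 1 (-0.0082) or metformin replicate 2 (-0.01) and in the fit without a filter (-0.01), and it was -0.05 without metformin replicate 3.

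**Figure D4:**
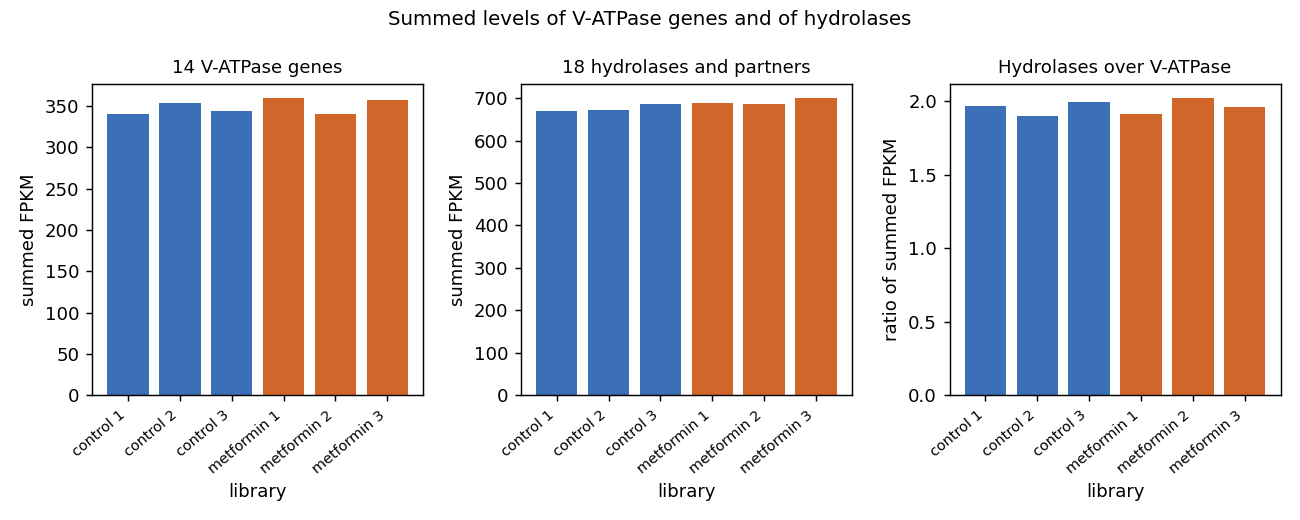
Summed FPKM of the 14 V-ATPase genes (left) and the 18 hydrolases and partners (middle), and the ratio of these sums (right), with 1 bar for each control library (blue) and metformin library (orange). Ratios lie between 1.90 and 2.02 in all 6 libraries.

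LAMTOR genes encode the 5 subunits of the scaffold that ties mTORC1 to the lysosome. Lamtor4, with 2 E-box copies, had the highest level at 64.0, 61.5 and 63.1 FPKM in control and 64.0, 61.8 and 57.9 FPKM in metformin libraries, with a log2 fold change of -0.04 (adjusted p = 0.752 in limma). Lamtor3 had the lowest level at 10.2, 10.6 and 9.60 FPKM in control and 10.97, 9.33 and 10.1 FPKM in metformin libraries, with a log2 fold change of 0.0013 (adjusted p = 0.998 in limma). Lamtor2 had the lowest fold change of -0.05 (adjusted p = 0.808 in limma), from 23.9, 25.5 and 23.4 FPKM in control to 25.1, 21.5 and 23.9 FPKM in metformin libraries. For all of them the groups overlapped. Lamtor5 and Lamtor1 were at 46.9 and 12.2 FPKM. Although the 5 subunits are part of 1 complex, their levels differed by 6.13 times between the highest and the lowest. Of the 5 genes, 4 values were lower and 1 higher with metformin, and all 5 were lower after rescaling to the same sum, quantile normalization or median centring. The median log2 fold change was -0.03, and it was -0.06 without metformin replicate 1 and 0.0012 without metformin replicate 3. Repeated words made up 52.3% of the transcript of Lamtor3, 35.3% of Lamtor5 and 32.4% of Lamtor1, and 0% of Lamtor2 and Lamtor4. The part of such repeats in the differences of level between the 5 genes was not tested.

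Members with and without an E-box were described side by side. The median log2 fold change was 0.03 for the 12 tested members with CACGTG and -0.0004 for the 22 tested members in the promoter table without it. For TCACGTG it was 0.04 for 11 members against -0.0050 for 23. For TCATGTG it was -0.0076 for 6 members against 0.01 for 28. No member of any of these sets was called. The differences between these medians were not tested, and no such split was made over all tested genes. The sets also differ in role, since 7 of 16 hydrolases and partners but 2 of 10 V-ATPase genes in the promoter table had CACGTG.

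The other lysosomal genes, 114 in a list that holds no member, were read from the same fit, and 113 were found in the table. Of these, 89 were tested and 0 had an adjusted p under 0.05, while 3 (3.37%) were higher and 4 (4.49%) lower at an unadjusted p under 0.05 in limma, beside 6.03% and 4.81% of all tested genes. The groups did not overlap for 8 genes (8.99%) in the higher and 5 (5.62%) in the lower direction, beside 8.89% and 8.10% of all tested genes, and the median log2 fold change was 0.0033. The 3 higher genes, named after their values were seen, were Tmem192 (0.12), Vps33a (0.12), which belongs to the complexes that fuse membranes with lysosomes, and the sulfatase gene Galns (0.15). The 4 lower genes were Atp6v0a2, the chloride exchanger gene Clcn7 (-0.12), the adaptor gene Ap1g1 (-0.09) and the Rag GTPase gene Rraga (-0.09). Their adjusted p ranged from 0.320 to 0.456 in limma.

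Some members share their place or their sequence with other genes. Glb1 overlaps a second entry on the same strand with a mean of 6.47 FPKM, which carries the same symbol in the table of gene names used here, and Ctsb overlaps the opposite strand gene Fdft1 over 774 bases. Npc1 overlaps the opposite strand gene 3110002H16Rik, which had a mean of 6.48 FPKM, over 967 bases. Opposite strand genes also overlap Grn (Fam171a2, 68 bases, 2.63 FPKM), Ctsz (Th1l, 10 bases, 17.4 FPKM) and Lamtor1 (Lrrc51, 13692 bases, 1.01 FPKM). Fragments in these overlaps could not be told apart for Glb1, nor for the other genes named here if the authors counted without strand. Beyond the genes named above, Cd63 and Atp6v1f had 43.5% and 29.2% of their 50-base words elsewhere in the genome, and the remaining members had at most 6.63%.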

How the data were processed

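RNA-seq of 3 control and 3 metformin libraries from cultures labelled as FGSCs was analysed. The deposited table holds FPKM for 55401 Ensembl genes, made by the authors, who did the mapping, counting and scaling, and its gene positions match GRCm38. The submitters' processing notes name HISAT2, DESeq2 and mm9, with no versions or roles, and the labels and the paper name different library kits. Whether strand was used in counting is not given in the sources used here. No per-sample column was left unused (0 columns).

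Values were tested as log2(FPKM + 1) for the 10661 genes that averaged 1 FPKM or more, with limma (version 3.58.1, R 4.3.3), a trend on the mean, two-sided, and Benjamini-Hochberg adjustment with a threshold of 0.05. Groups followed the treatment label. Intervals are 95% intervals from the moderated spread. Members were read from this fit and not tested as a list. The members and the lists of other genes were chosen with earlier results of these data known.

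Depth was estimated from values of single-exon genes of at most 400 bp, all of which fell within 0.1 of whole multiples of one step. Fragments per member used GENCODE M1 exon lengths, and limits of 3 fragments cover counting error only. Shares of 50-base words were found in NCBIM37, and no coordinates were converted between builds. Promoters came from RefSeq (GRCm38.p6), in the 250 bases before each start. Atp6v1g1, Atp6v1b2, Atp6v1h, Lamtor3, Ctsb, Atp6v1c1, Ctsh and Npc1 had no entry.

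Values in every library are given for Tfeb and Tfe3, for the members with the highest and lowest level and the highest and lowest fold change of each role group, for members with an unadjusted p under 0.05 and for members below 1 FPKM. Atp6ap1, Mitf and Tfec were also set beforehand, and any other gene with its values was chosen after they were seen. The fit was repeated with a pseudocount of 0.1, without a filter, with a minimum mean of 10 FPKM, rescaling to the same sum, quantile normalization, median centring, no trend, a replicate block and each library left out. The fit was also run on simulated data with independent normal spread. The changes added there were larger than the fold change of any tested member, so it does not show whether such small changes would be found. Figures were drawn with matplotlib 3.10.9 in Python 3.11.15.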

Additional observations from a re-analysis of the deposited data

How the results depend on the processing

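No member was called under any of the 14 alternatives, and the lowest adjusted p of any tested member was 0.266 in limma. Of the 41 tested members, 22 kept their sign throughout, 17 of them higher and 5 lower. The matching share over all tested genes was not determined. Without the filter, 7 genes were called in place of 3. At an unadjusted p under 0.05, 2 members were higher (Ctsb and Grn) and 2 lower (Hexa and Atp6v1b2), against 1 and 0 with the filter. Among all genes, 894 were higher and 751 lower at that p without the filter, against 643 and 513 with it. Without the filter the median of the hydrolases was 0.022, and the difference of the V-ATPase median from it was -0.010. Without the trend, 2 members were higher at an unadjusted p under 0.05, beside 551 higher and 486 lower among all tested genes. With a minimum mean of 10 FPKM, the median of the membrane and lipid transport genes was 0.014. Leaving out 1 library at a time gave 3 to 4 called genes and 0 called members. At an unadjusted p under 0.05, 514 to 627 of all tested genes were then higher and 393 to 508 lower. Among the members, 1 to 3 were higher and 0 to 1 lower at that p. Grn was not among them without control replicate 1 or 2 or without metformin replicate 3. Medians then ranged from 0.013 to 0.052 for the membrane genes, from 0.0053 to 0.047 for V0, from -0.021 to 0.025 for V1, from -0.015 to 0.035 for all V-ATPase genes, from 0.028 to 0.048 for the hydrolases, from 0.00022 to 0.063 for Tfeb and Tfe3, from -0.060 to 0.0012 for LAMTOR, and from 0.0067 to 0.030 for all members. The difference of the V-ATPase median from that of the hydrolases ranged from -0.053 to -0.0082. Under at least 1 alternative the sign turned for 19 of the 41 members. With 1 library left out it turned for these 9 of the members with values in every library, Tfeb (-0.046 to 0.077), Tfe3 (-0.0036 to 0.10), Scarb2 (-0.063 to 0.00094), Atp6v0b (-0.029 to 0.055), Atp6v0c (-0.078 to 0.086), Atp6v0e (-0.039 to 0.012), Lamtor2 (-0.096 to 0.011), Lamtor3 (-0.052 to 0.054) and Lamtor4 (-0.070 to 0.00068). The other 10 were Lamp2, Cd63, Lgmn, Neu1, Psap, Atp6ap2, Atp6v1a, Atp6v1c1, Lamtor1 and Lamtor5, between -0.091 and 0.046, both for Neu1, over the alternatives. Atp6v0c also turned after quantile normalization (-0.0040), and Lamtor3 after rescaling to the same sum (-0.0029), quantile normalization (-0.0051) and median centring (-0.0010). The cause of these moves was not tested. With a replicate block, 0 members were called and 1 was higher at an unadjusted p under 0.05, as without it. At that p, 578 of all tested genes were higher and 451 lower with the block. Across all tested genes, 2 were called with this block and 2 with a minimum mean of 10 FPKM, in place of 3. Libraries with the same number shared only that number, with correlations of deviations of -0.03, 0.02 and 0.05. The depth leaves Hexa and Ctsh below what 3 fragments give.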
